A study of Mus musculus with 4 samples.

Results

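Expanded T cell receptor chains are described here, each of them an in-frame TCRα or TCRβ chain that held at least 0.02% of the reads of its library. A chain was defined by its V segment, its J segment and the nucleotide sequence of its CDR3, and the reads of all deposited clones that shared these were summed. The chains were chosen by their share of reads, so their number and their levels are descriptions of that choice. Of 140420 in-frame TCRα chains over 4 libraries, 906 were expanded, and of 313703 in-frame TCRβ chains 530 were. Counted once across libraries, these were 734 distinct TCRα chains of 121027 and 524 distinct TCRβ chains of 295400.

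The libraries were made from total splenic CD4 T cells of 2 wild type (WT) and 2 Tet2/3 DKO mice by TCR SMART-seq. Tet2/3 DKO mice lack Tet2 in every cell (Tet2 -/-) and carry Tet3 flx/flx with CD4Cre, which deletes Tet3 from the double positive stage of thymocytes onwards. WT mice were C57BL/6, all mice were young, around weaning age, and the methods describe age- and sex-matched animals. Live CD4+ CD25- TCRβ+ cells negative for the αGalCer-loaded CD1d tetramer were sorted after depletion of B cells, so iNKT cells and CD25 expressing cells, regulatory T cells among them, were removed in both genotypes, while activated and naive cells stayed together. The question of the study for these samples was whether CD4 T cells without TET2 and TET3, enzymes that oxidize 5-methylcytosine, keep a diverse repertoire before they expand.

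A TCRα chain is built by joining a V and a J segment, and a TCRβ chain by joining V, D and J segments. The CDR3, which spans the joint, contacts the peptide presented by MHC. Terminal deoxynucleotidyl transferase adds nucleotides at the joints that no germline segment encodes, and joints with few added nucleotides can arise repeatedly in different cells and different mice. A chain can therefore have many reads because 1 cell divided, because it was made in many cells, or because its cells hold more receptor RNA, and in bulk RNA fewer cells and less RNA per cell cannot be told apart.

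The library preparation adds no molecular identifiers, and intervals and detection limits cover counting error only. A TCRα table held 172506 to 287799 reads and a TCRβ table held 365421 to 569678 reads, with Tet2/3 DKO replicate 2 the deepest for both chains. The fewest reads of an expanded chain ranged from 35 to 58 for TCRα and from 74 to 114 for TCRβ. Just below the threshold lay chains with 34, 43, 39 and 57 reads for TCRα and 73, 90, 80 and 113 reads for TCRβ, in the order WT replicates 1 and 2 and Tet2/3 DKO replicates 1 and 2. The members just inside had 35, 44, 40 and 58 reads for TCRα and 74, 91, 82 and 114 reads for TCRβ. No expanded chain had a stop codon in its CDR3.

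The most abundant TCRα chain of each library is given by its CDR3, 5′ to 3′, from the codon of the conserved cysteine to that of the J phenylalanine, because these chains held the most reads of their libraries. Capitals mark the bases between the end of the V part and the start of the J part.
TRAV7D-5 with TRAJ26, WT replicate 1: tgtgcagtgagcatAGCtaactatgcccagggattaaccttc
TRAV6-7-DV9 with TRAJ42, WT replicate 2: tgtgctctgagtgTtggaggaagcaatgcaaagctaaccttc
TRAV7-2 with TRAJ30, Tet2/3 DKO replicate 1: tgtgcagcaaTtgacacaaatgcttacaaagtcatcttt
TRAV14-1 with TRAJ42, Tet2/3 DKO replicate 2: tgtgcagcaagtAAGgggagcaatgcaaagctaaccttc

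The corresponding TCRβ chains follow, with capitals for the bases between the V and J parts. The alignments place a D segment in those of both WT libraries and in neither of the Tet2/3 DKO libraries.
TRBV20 with TRBJ2-5, WT replicate 1: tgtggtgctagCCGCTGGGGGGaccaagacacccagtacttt
TRBV5 with TRBJ2-5, WT replicate 2: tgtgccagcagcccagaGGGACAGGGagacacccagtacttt
TRBV1 with TRBJ2-3, Tet2/3 DKO replicate 1: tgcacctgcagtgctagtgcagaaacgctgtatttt
TRBV13-1 with TRBJ2-5, Tet2/3 DKO replicate 2: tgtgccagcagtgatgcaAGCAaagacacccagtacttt

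The chain with the largest share among TCRα was TRAV7D-5 with TRAJ26 in WT replicate 1, with 3393 reads or 1.97% of the table (95% Wilson interval 1.90 to 2.03). TRAV7D-5 lies at chr14:52835861-52836387 (mm10) in the Tra locus, but it tied with its copy TRAV7N-5, and these cannot be told apart. The chain had 0 reads in the other 3 libraries. This allows shares of up to 0.00139%, 0.00154% and 0.00104% in WT replicate 2 and Tet2/3 DKO replicates 1 and 2. In Tet2/3 DKO replicate 2, TRAV14-1 with TRAJ42 held 1.18%, TRAV21/DV12 with TRAJ58 held 1.08% and TRAV6-3 with TRAJ23 held 0.667% of the reads. The top chains of the other libraries were several times smaller. They were TRAV6-7-DV9 with TRAJ42 at 0.152% in WT replicate 2 and TRAV7-2 with TRAJ30 at 0.282% in Tet2/3 DKO replicate 1. A chain with more than 1% of the TCRα reads was thus present in 1 library of each genotype, 1 in WT replicate 1 and 2 in Tet2/3 DKO replicate 2.

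Among TCRβ chains the largest were in Tet2/3 DKO replicate 2. TRBV13-1 with TRBJ2-5 held 9642 reads, 1.69% of the table (95% Wilson interval 1.66 to 1.73), and TRBV31 with TRBJ2-5 held 7821 reads or 1.37%. TRBV13-1 lies at chr6:41116036-41116468 and TRBV31 at chr6:41557693-41558371, downstream of the TRBJ segments. TRBV15 with TRBJ1-1 followed at 0.721%. The top TCRβ chain of WT replicate 1, TRBV20 with TRBJ2-5, held 0.780%, that of WT replicate 2, TRBV5 with TRBJ2-5, held 0.242%, and that of Tet2/3 DKO replicate 1, TRBV1 with TRBJ2-3, held 0.275%. Of the 12 chains made up of the 3 largest in each library, 9 had 0 reads in every other library for TCRα and 9 for TCRβ, while 75.1% to 77.5% of TCRα and 89.1% to 89.8% of TCRβ chains below the threshold were found in no other library. Where a large chain was also read elsewhere the levels were far apart. TRDV1 with TRAJ37, a delta V segment joined to an alpha J segment, had 760 reads in WT replicate 1 and 7, 2 and 8 in WT replicate 2 and Tet2/3 DKO replicates 1 and 2.

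WT replicates 1 and 2 had 258 and 201 expanded TCRα chains and Tet2/3 DKO replicates 1 and 2 had 168 and 279, and they held 13.2%, 7.58%, 6.91% and 18.9% of the reads in the same order. Expanded TCRβ chains numbered 144 and 105 in WT versus 57 and 224 in Tet2/3 DKO, with 7.78%, 4.32%, 2.73% and 17.3% of the reads. For both chains both WT libraries lay between the Tet2/3 DKO libraries. Tet2/3 DKO replicate 2 had 3.93 times the expanded TCRβ chains of replicate 1 and 6.33 times their share of reads, against 1.37 and 1.80 times between WT replicates 1 and 2. For TCRα the mean number was 229.5 ± 40.3 (SD, n = 2) in WT versus 223.5 ± 78.5 in Tet2/3 DKO. The TCRβ means were 124.5 ± 27.6 and 140.5 ± 118. Numbers and shares of reads follow from the threshold that chose the chains and are given without a test.

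**Figure D1:**
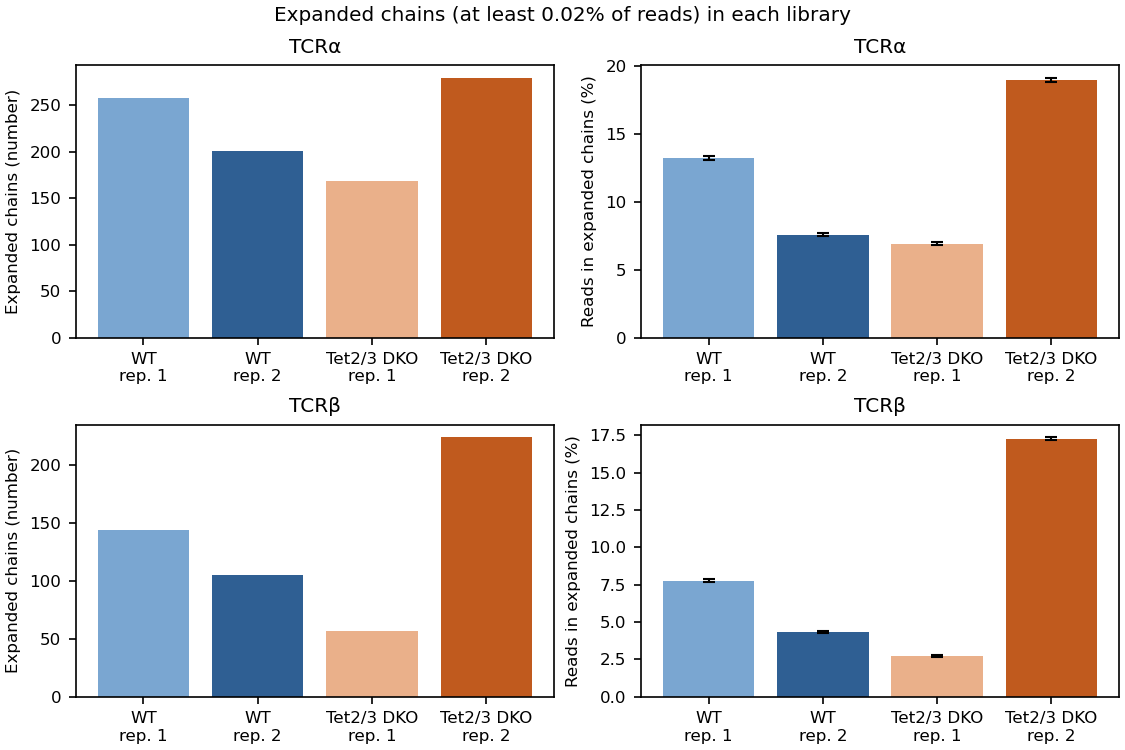
Number of expanded chains (left) and percent of the reads of the table they hold (right) for TCRα and TCRβ in each of the 4 libraries. Bars are single libraries, and error bars on the right are 95% Wilson intervals. For both chains Tet2/3 DKO replicate 1 is the lowest and Tet2/3 DKO replicate 2 the highest.

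Most expanded chains were only slightly above the threshold. The median share of an expanded chain was 0.0325%, 0.0305%, 0.0313% and 0.0361% for TCRα and 0.0339%, 0.0291%, 0.0298% and 0.0418% for TCRβ in WT replicates 1 and 2 and Tet2/3 DKO replicates 1 and 2. Chains with at least 0.1% of reads numbered 15, 6, 7 and 30 for TCRα and 13, 8, 3 and 31 for TCRβ. The rule holds the medians close to the threshold, while it does not hold the counts of these large chains, so their spreads cannot be compared. The 10 largest TCRβ chains held 2.56%, 1.33%, 1.16% and 6.55% of the reads, and the 10 largest TCRα chains 3.61%, 1.04%, 1.46% and 5.64%.

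**Figure D2:**
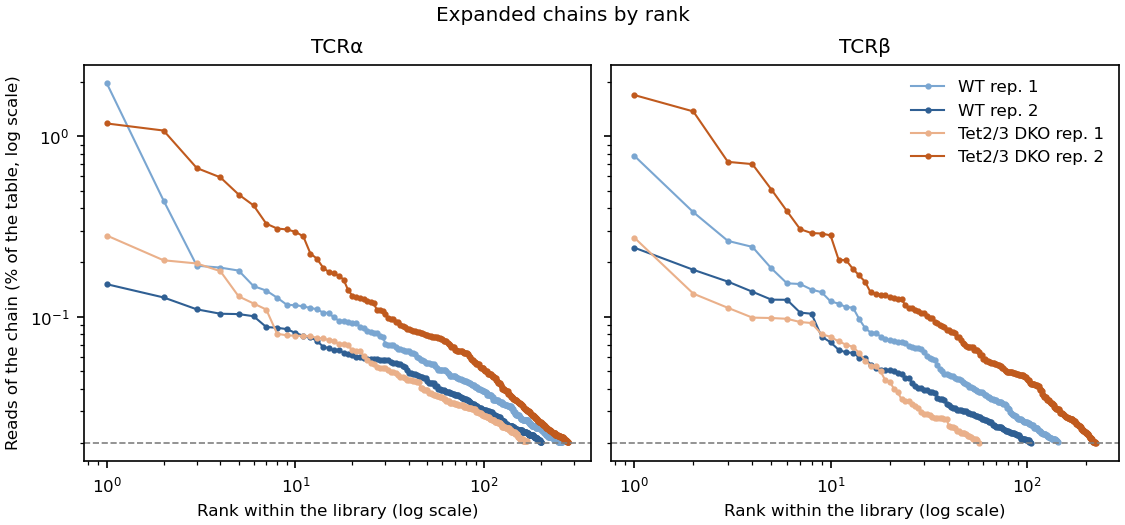
Percent of reads of each expanded chain (log scale) against its rank within its library (log scale), for TCRα and TCRβ. Each point is a chain, each line a library, and the dashed line is the threshold of 0.02%. The line of Tet2/3 DKO replicate 2 lies above the others at nearly all ranks, and WT replicate 1 starts highest for TCRα at 1.97%.

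Expanded chains were found in other mice more often than the remaining chains in each of the 4 libraries, a property that was not used to choose them. An expanded TCRα chain was found, with any number of reads, in at least 1 other library in 56.2% and 59.7% of cases for WT replicates 1 and 2 and in 70.8% and 44.8% for Tet2/3 DKO replicates 1 and 2. Among in-frame TCRα chains below the threshold this share was 24.9%, 23.3%, 23.6% and 22.5%. The difference was 34.3 ± 10.4 percentage points (mean ± SD, n = 4) and had the same direction in 4 of 4 libraries (exact sign-flip test, p = 0.125, the smallest that 4 libraries allow). For TCRβ the expanded chains were found elsewhere in 27.8%, 21.0%, 22.8% and 18.3% of cases and the others in 10.9%, 10.2%, 10.7% and 10.3%, a difference of 11.9 ± 3.74 points in 4 of 4 libraries (exact sign-flip test, p = 0.125). Between genotypes the sharing of expanded chains differed by -0.133 points for TCRα (exact permutation test, p = 1) and by -3.81 points for TCRβ (p = 0.667), Tet2/3 DKO minus WT, where the smallest p that 2 libraries against 2 allow is 0.333.

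Most expanded TCRα chains were either found in every library or in no other. In WT replicate 1, 113 were found in no other library, 29 in 1, 24 in 2 and 92 in all 3 others. The numbers found in all 3 others were close in every library, with 92, 88, 95 and 80 for WT replicates 1 and 2 and Tet2/3 DKO replicates 1 and 2. Those found in no other library numbered 113, 81, 49 and 154, and followed the total number of expanded chains. The chains found nowhere else held 7.11%, 3.24%, 2.48% and 12.8% of all TCRα reads, whereas those found in all libraries held 3.87%, 3.08%, 3.55% and 2.87%. The unshared chains thus carried most of the spread between libraries. Expanded TCRβ chains found in all 3 others were few, 6, 9, 6 and 2, or 4.17%, 8.57%, 10.5% and 0.893% against 0.937%, 0.762%, 0.790% and 0.756% of the chains below the threshold, and those found in no other library numbered 104, 83, 44 and 183.

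**Figure D3:**
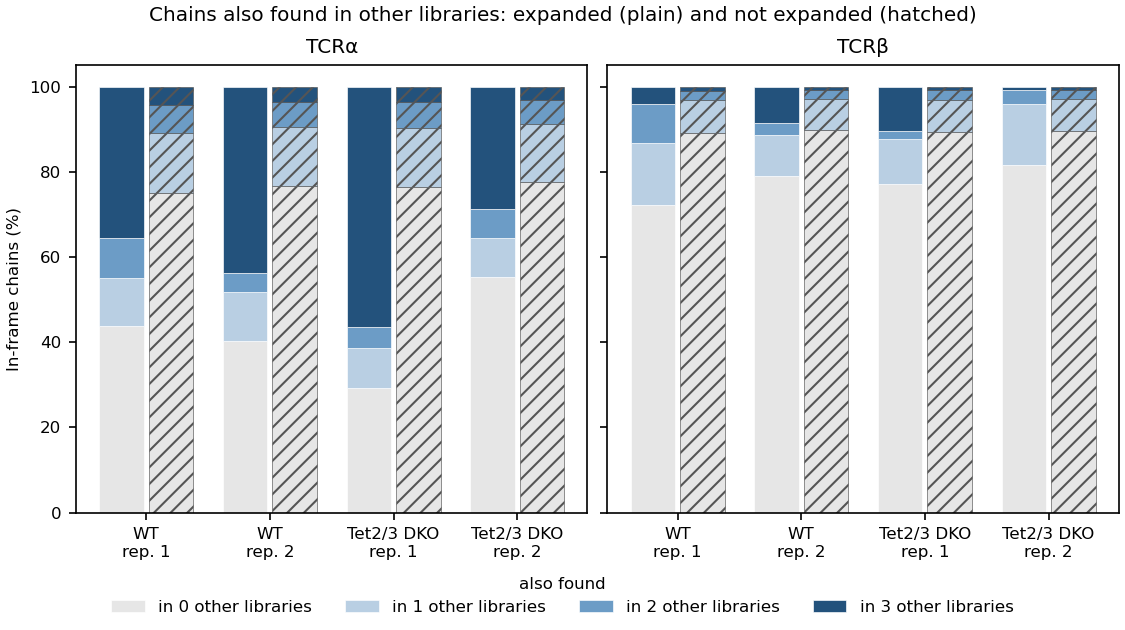
Percent of in-frame chains also found in 0, 1, 2 or 3 of the other libraries, for expanded chains (plain bars) and for chains below the threshold (hatched bars) of each library, TCRα left and TCRβ right. Expanded TCRα chains found in all 3 others make up 28.7% to 56.5% of a library, against 3.27% to 4.36% of the chains below the threshold.

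Of the 734 distinct expanded TCRα chains, 649 passed the threshold in 1 library, 31 in 2, 21 in 3 and 33 in all 4. Of the 524 distinct TCRβ chains, 520 passed in 1 library, 3 in 2, none in 3 and 1 in all 4. For TCRβ both WT libraries shared 3 expanded chains, both Tet2/3 DKO libraries 1, and pairs across genotypes 1 or 2. For TCRα, overlaps within a genotype lay inside the range of those across genotypes, 41 to 57 chains for the latter. Both WT libraries shared 48 expanded TCRα chains, 18.6% of those of replicate 1 and 23.9% of those of replicate 2. Both Tet2/3 DKO libraries shared 46, 27.4% and 16.5% of their lists. WT replicate 1 and Tet2/3 DKO replicate 1 shared 57, or 22.1% and 33.9%, and WT replicate 2 and Tet2/3 DKO replicate 2 shared 41, or 20.4% and 14.7%.

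The 5 TCRα chains with the largest mean share among those expanded in all 4 libraries are shown for their joints, which hold no capital or a single one, the bases that no V or J segment supplies.
TRAV14D-1 with TRAJ13: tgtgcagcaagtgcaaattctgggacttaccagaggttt
TRAV7-2 with TRAJ22: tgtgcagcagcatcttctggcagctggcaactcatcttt
TRAV7-2 with TRAJ15: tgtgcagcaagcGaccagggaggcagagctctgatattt
TRAV7-2 with TRAJ22: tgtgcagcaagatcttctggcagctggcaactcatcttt
TRAV7-2 with TRAJ15: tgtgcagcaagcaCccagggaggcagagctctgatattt

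TRAV14D-1 with TRAJ13 was the most abundant of them and held 0.140% and 0.103% of the reads in WT versus 0.0784% and 0.0966% in Tet2/3 DKO. The first listed TRAV7-2 with TRAJ22 chain held 0.0881% and 0.0878% in WT versus 0.118% and 0.0653% in Tet2/3 DKO, so the genotypes overlapped. Of the 33 chains, 20 used TRAV7-2 and 6 a member of the TRAV14 family, and TRAJ15 was the most common J segment with 7 chains, followed by TRAJ22 with 5. In 24 of them the V part met the J part with no inserted base, and in the other 9 with 1. Their CDR3 lengths spanned 36 to 45 nucleotides. Some TRAV14 copies shared the same J segment and CDR3, so that the 33 chains held 30 distinct CDR3 sequences.

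Across these 33 chains the ratio of the highest to the lowest level among the 4 libraries had a median of 1.61 and ranged from 1.15, for TRAV7-2 with TRAJ9, to 4.32, for a TRAV7-2 with TRAJ31 chain that held 0.0991% in WT replicate 1. The range is limited by the rule, since each had to pass the threshold in every library. Both WT libraries lay above both Tet2/3 DKO libraries for 4 chains, and both Tet2/3 DKO libraries above both WT libraries for 5. Among all 1362 TCRα chains detected in the 4 libraries these arrangements made up 19.2% and 12.3%. Together the 33 chains held 1.55% and 1.40% of the TCRα reads in WT versus 1.54% and 1.35% in Tet2/3 DKO.

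The single TCRβ chain expanded in all libraries was the following, shown with the same marking.
TRBV20 with TRBJ2-7: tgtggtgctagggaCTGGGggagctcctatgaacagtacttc
It held 0.0971% and 0.124% of the reads in WT versus 0.0498% and 0.0562% in Tet2/3 DKO, with both WT libraries above both Tet2/3 DKO libraries. Among all 636 TCRβ chains detected in the 4 libraries, 21.1% had this arrangement and 12.4% the opposite. The 3 TCRβ chains expanded in 2 libraries, named after their values were seen, were TRBV20 with TRBJ2-7, TRBV20 with TRBJ2-2 and TRBV13-2 with TRBJ2-5.

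**Figure D4:**
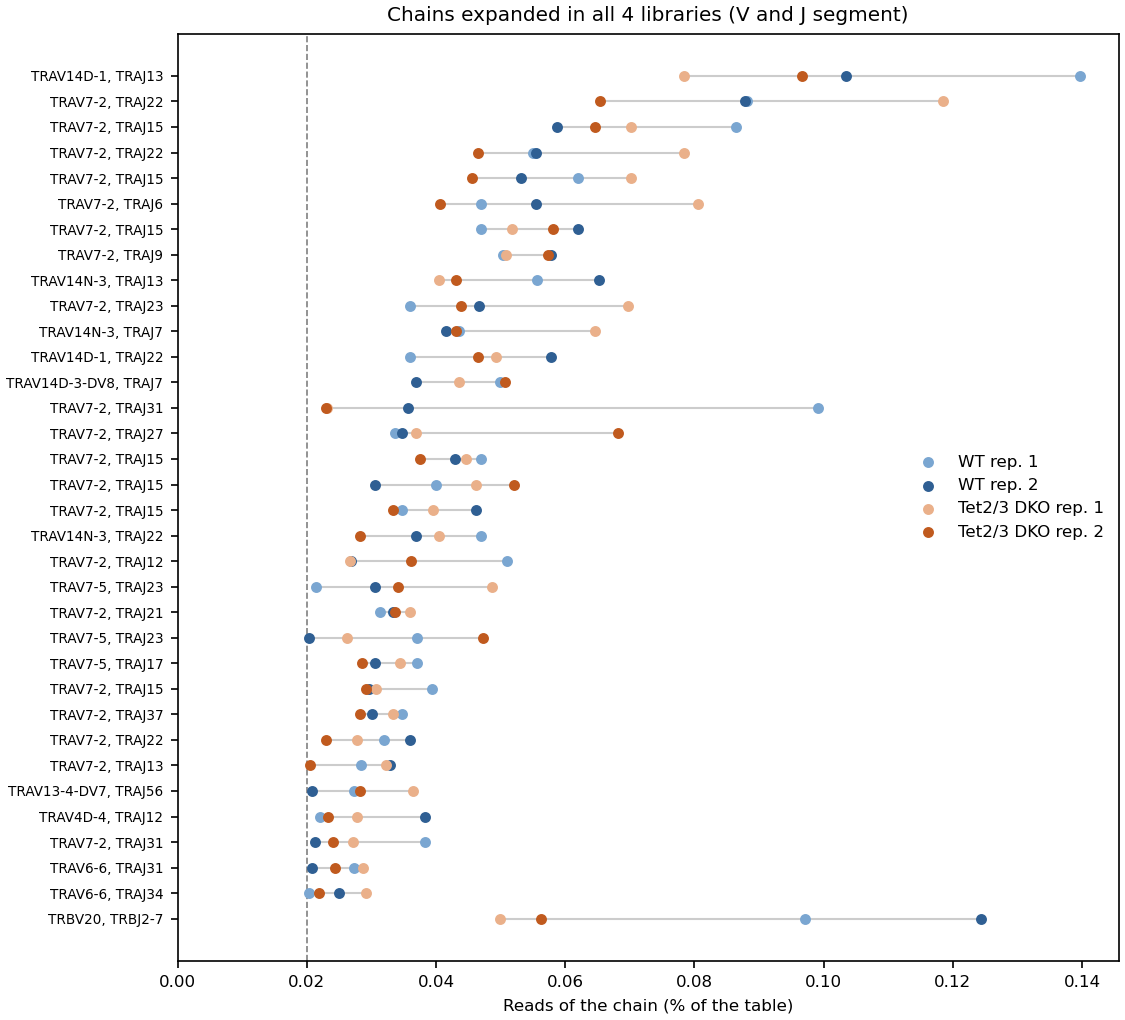
Percent of reads held in each library by the 33 TCRα chains and the 1 TCRβ chain (bottom row) that were expanded in all 4 libraries, each labelled by its V and J segment. Points are libraries, grey lines join the lowest and the highest, and the dashed line is the threshold of 0.02%. TCRα levels run from 0.0203% to 0.140%, and the colours of WT and Tet2/3 DKO are mixed in most rows.

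Inserted nucleotides were fewer on average in the expanded chains of each library. Expanded TCRα chains had on average 1.51 and 1.25 inserted bases in WT libraries and 1.06 and 1.65 in Tet2/3 DKO libraries, against 2.29, 2.31, 2.32 and 2.28 in the chains below the threshold. The difference was -0.931 ± 0.281 bases (mean ± SD, n = 4; exact sign-flip test, p = 0.125), lower in 4 of 4 libraries. A joint with no inserted base was present in 41.5% and 50.7% of expanded TCRα chains in WT versus 53.6% and 41.6% in Tet2/3 DKO, against 24.7% to 25.1% of the others. Among expanded TCRβ chains whose D segment was placed the mean was 1.59 and 1.71 in WT versus 1.85 and 1.61 in Tet2/3 DKO, against 2.36, 2.39, 2.32 and 2.18 (difference -0.623 ± 0.131, lower in 4 of 4 libraries, exact sign-flip test, p = 0.125). No D segment was placed in 165 expanded TCRβ chains, 28.6% to 36.1% of a library against 27.2% to 27.6% of the chains below the threshold, and these are left out of the means.

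The low number of inserted bases went with sharing for both chains. Expanded TCRα chains found in all 3 other libraries had 0.402, 0.284, 0.400 and 0.363 inserted bases on average, and those found in no other library 2.68, 2.47, 2.33 and 2.45. For TCRβ, on the 6, 9, 6 and 2 chains found in all 3 others, less those without a placed D segment, the means were 0, 0.143, 0 and 0, against 1.83, 2.03, 1.94 and 1.78. When only chains found in a single library were compared, expanded with other, a comparison chosen after seeing the data, the TCRα difference shrank to -0.172 bases (exact sign-flip test, p = 0.25). For TCRβ it was -0.560 (exact sign-flip test, p = 0.125).

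By CDR3 length, expanded TCRα chains averaged 39.5 and 39.9 nucleotides in WT and 39.8 and 40.7 in Tet2/3 DKO, and the others 40.2, 40.2, 40.4 and 40.5 (difference -0.339 ± 0.395, shorter in 3 of 4 libraries, exact sign-flip test, p = 0.25). The length of 39 nucleotides was the most common, together with 42 in Tet2/3 DKO replicate 2, with 43.0%, 39.8%, 45.8% and 30.5% of expanded TCRα chains against 30.1% to 31.0% of the others, and Tet2/3 DKO replicate 2 showed no excess. Expanded TCRβ chains averaged 40.5 and 40.9 nucleotides in WT and 41.3 and 40.1 in Tet2/3 DKO, and the others 41.2, 41.2, 41.3 and 41.0 (difference -0.470 ± 0.404, exact sign-flip test, p = 0.25). By genotype, Tet2/3 DKO minus WT, the mean length of expanded chains differed by 0.544 nucleotides for TCRα (exact permutation test, p = 0.667) and by -0.0340 for TCRβ (p = 1).

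V and J segments of the expanded chains were compared with those of the in-frame chains below the threshold in the same library, with each chain counted once (edgeR quasi-likelihood test, library as block, Benjamini-Hochberg adjustment). Of 30 TRAV segments tested 3 were called (10%), against 29 of 60 at a threshold of 0.01% and, with DESeq2, TRAV7-2 alone. TRAV7-2 rose from 10.4%, 9.66%, 9.61% and 9.79% of the other chains to 20.9% and 24.9% of the expanded chains in WT versus 33.3% and 17.6% in Tet2/3 DKO (log2 fold change 1.25, SE 0.25, adjusted p = 0.00841). TRAV7-2, at chr14:53390633-53391136, was also the V segment with the most expanded chains, 209, ahead of TRAV6-6 with 67 and TRAV7-5 with 50. TRAV6-5 fell from a mean of 2.70% to 1.04% (log2 fold change -1.46, adjusted p = 0.0136) and TRAV7D-3 from 1.44% to 0.304% (-2.12, adjusted p = 0.0494). TRAV6-5 had 9 and TRAV7D-3 had 3 expanded chains. Both passed the filter only through the number predicted from the other chains, where they are higher. The call of TRAV7D-3 was lost without Tet2/3 DKO replicate 1 (adjusted p = 0.0779), and whichever of the other 3 libraries was left out the segment did not pass the filter on low numbers and was not tested. That of TRAV6-5 was lost without WT replicate 1 (edgeR adjusted p = 0.0834). With a library left out the log2 fold changes were -1.70 to -1.28 for TRAV6-5 and -1.84 for TRAV7D-3. In alternatives run on all libraries TRAV7D-3 kept its call in 2 of 4 and TRAV6-5 in 4 of 6. For 426 of the 906 expanded TCRα chains (47.0%) the first V segment tied with another, in 423 of them with a D or N copy of the same segment in the duplicated Tra region. All 209 TRAV7-2 chains tied with such a copy, so reads of TRAV7-2 and its copy cannot be told apart. With D and N copies merged TRAV7-2 differed by 1.25 (edgeR adjusted p = 0.00158).

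Of 36 TRAJ segments 5 were called (13.9%), 3 higher and 2 lower, against 19 of 43 at a threshold of 0.01%. TRAJ22 made up 5.81% and 9.45% of expanded chains in WT versus 8.93% and 7.53% in Tet2/3 DKO, against a mean of 4.11% of the others (log2 fold change 0.92, SE 0.23, edgeR adjusted p = 0.00251). TRAJ15 rose to 6.66% from 3.65% (0.83, adjusted p = 0.00875) and TRAJ13 to 4.31% from 2.39% (0.84, adjusted p = 0.00875), each higher in 4 of 4 libraries. TRAJ32 fell to 0.432% from 2.04% (-2.21, adjusted p = 0.00163) and TRAJ33 to 1.02% from 2.23% (-1.16, adjusted p = 0.0381). With 4 and 9 expanded chains, TRAJ32 and TRAJ33 passed the filter only through the number predicted from the other chains, where they are higher. TRAJ31, at chr14:54187895-54187951, had the most expanded chains, 81, and made up 8.91% of expanded and 6.87% of other chains (adjusted p = 0.272). Without WT replicate 2 only TRAJ32 kept its call, and without Tet2/3 DKO replicate 1 TRAJ22 and TRAJ32 did. The call of TRAJ33 was lost whichever library was left out. With a library left out the log2 fold changes were 0.82 to 1.04 for TRAJ22 and 0.71 to 0.94 for TRAJ15. They were 0.80 to 0.92 for TRAJ13 and -1.23 to -1.04 for TRAJ33. DESeq2 kept the 3 that were higher and lost TRAJ32 (adjusted p = 0.0779) and TRAJ33 (adjusted p = 0.368). At 0.01% TRAJ13 was lost (edgeR adjusted p = 0.1202). Over 4 alternatives run on all libraries TRAJ33 kept its call in 2.

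Expanded chains of the TCRα segments that rose were mostly shared between libraries. Of the 209 expanded TRAV7-2 chains 191, or 91.4%, were found in at least 1 other library, and of the expanded chains with TRAJ22, TRAJ15 and TRAJ13 75.7%, 81.4% and 79.5% were, against 509 of all 906 expanded TCRα chains (56.2%). Below the threshold these shares were 40.5% for TRAV7-2 and 30.03%, 29.0% and 25.4% for TRAJ22, TRAJ15 and TRAJ13. Chains found in a single library were 397 of the 906 expanded TCRα chains and 18 of the 209 with TRAV7-2. These numbers follow from the shares found elsewhere, so this comparison adds no separate evidence on segment use. Among chains found in a single library, no TRAV and no TRAJ segment was called, and 0 of 15 and 0 of 19 had an unadjusted p below the threshold of 0.05. There TRAV7-2 differed by -0.75 on the log2 scale (edgeR adjusted p = 0.394), the opposite direction, TRAJ15 by -0.28 (adjusted p = 0.817), TRAJ22 by 0.17 (adjusted p = 0.843) and TRAV6-5 by -0.62 (adjusted p = 0.394). TRAV7D-3, TRAJ13, TRAJ32 and TRAJ33 did not pass the filter on low numbers there and were not tested.

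Of 15 TRBV segments 2 were called (13.3%). TRBV20, at chr6:41188273-41188977, made up 13.9% and 21.9% of expanded chains in WT versus 14.0% and 9.38% in Tet2/3 DKO, against 6.37% to 6.45% of the others (log2 fold change 1.13, SE 0.22, edgeR adjusted p = 0.0001). It also had the most expanded TCRβ chains, 72, ahead of TRBV13-1 and TRBV5 with 65 each. TRBV26 fell from a mean of 5.39% to 1.90% (-1.29, adjusted p = 0.00225), with 3, 3, 0 and 6 expanded chains, and was not called by DESeq2 (adjusted p = 0.147). Of the expanded TRBV20 chains 37.5% were found elsewhere, against 21.9% of all expanded TCRβ chains and 13.3% of the TRBV20 chains below the threshold, and among chains found in a single library both calls remained, with TRBV20 at 0.81 (adjusted p = 0.00715) and TRBV26 at -1.34 (adjusted p = 0.00715). Without WT replicate 1 neither was called (adjusted p = 0.158 and 0.247), with log2 fold changes of 1.14 and -1.24. Of 12 TRBJ segments none was called (0%), and 0 had an unadjusted p below 0.05. TRBJ2-7, TRBJ2-4 and TRBJ2-5 were the most used, with 112, 66 and 61 expanded chains.

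**Figure D5:**
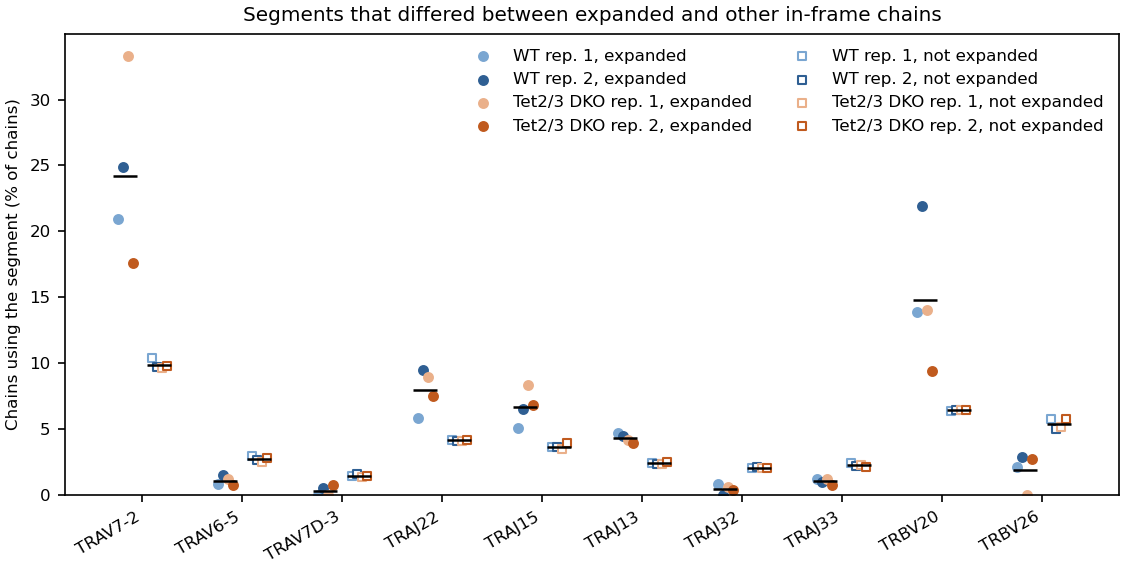
Percent of chains using each of the 10 segments that were called between expanded chains (filled circles) and chains below the threshold (open squares), by library. Black lines are means over the 4 libraries. TRAV7-2 lies at 17.6% to 33.3% of expanded chains, and TRBV20 at 9.38% to 21.9%.

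Between genotypes the segments of expanded chains were tested in the same way on 2 libraries against 2. None of 23 TRAV segments (0%), none of 27 TRAJ segments (0%) and none of 15 TRBV segments (0%) was called by edgeR, and 0, 0 and 2 had an unadjusted p below 0.05. DESeq2 called none in these either. TRAV7-2 made up 22.9% ± 2.79 (SD, n = 2) of expanded chains in WT and 25.4% ± 11.2 in Tet2/3 DKO, and TRBV20 17.9% ± 5.67 and 11.7% ± 3.30.

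Of 12 TRBJ segments 3 were called (25%), all with an edgeR adjusted p of 0.0397. TRBJ1-6 was used by 1 and 1 expanded chains in WT and 3 and 10 in Tet2/3 DKO, or 0.694% and 0.952% against 5.26% and 4.46% (log2 fold change 2.39). TRBJ2-1 made up 4.17% and 6.67% in WT versus 17.5% and 12.1% in Tet2/3 DKO (1.32). TRBJ2-2 was lower, with 11.1% and 13.3% in WT versus 3.51% and 5.36% in Tet2/3 DKO (-1.26). The groups did not overlap for these 3 segments, but they rest on 15, 50 and 44 chains in all. Overlap was also absent for TRBJ2-7, TRBJ2-4, TRBJ1-1 and TRBJ1-4, which were not called, so it does not set the called segments apart. TRBJ1-6 reached the minimum of 10 chains through its 13 chains in Tet2/3 DKO, although with no minimum the same 12 segments were tested and the same 3 called. No TRBJ segment was called at a threshold of 0.01%, with DESeq2 or with the replicate number as a block. None was called either when the reads of the expanded chains were tested. Over 8 alternatives run on all libraries TRBJ1-6 and TRBJ2-1 each kept the call in 3, and TRBJ2-2 in 1. Leaving out a library leaves a genotype with 1 library, so only effect sizes are given for those fits. With a library left out the log2 fold changes stayed at 2.17 to 2.59 for TRBJ1-6, which was not tested without Tet2/3 DKO replicate 2, at 1.03 to 1.73 for TRBJ2-1 and at -1.74 to -1.16 for TRBJ2-2. At a threshold of 0.01% TRBJ1-6 was at 1.28 and TRBJ2-1 at 0.32, and on reads TRBJ1-6 was at 0.68.

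Chains of the iNKT type, which the sort should remove, were looked for by their segments. The invariant iNKT chain joins TRAV11 to TRAJ18, and 33, 26, 18 and 24 in-frame chains of a TRAV11 family segment with TRAJ18 were read. None of them was expanded, but only 0.476% to 0.878% of all in-frame TCRα chains were. The most abundant held 15 and 40 reads in WT versus 13 and 28 in Tet2/3 DKO, or 0.00870%, 0.0185%, 0.00667% and 0.00973% of the TCRα reads. Its CDR3 had 45 nucleotides in 3 libraries and 48 in Tet2/3 DKO replicate 2, so the last is not of the same length. Separately, TCRα chains with a TRDV segment, which no step of the sort was set to remove, were expanded in every library. They numbered 2, 4, 2 and 2 and held 0.468%, 0.130%, 0.0523% and 0.0671% of the reads. All used TRDV1, which made up a mean of 1.17% of expanded chains and 1.17% of those below the threshold.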

How the data were processed

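TCR SMART-seq libraries of splenic CD4 T cells from 2 WT and 2 Tet2/3 DKO mice were used, while the thymus libraries and those of transferred cells were not analysed here. RNA was amplified with a 5′ RACE kit and sequenced on a MiSeq. The authors trimmed reads with fastp 0.21.0 (bcl2fastq 2.20.0 is also named in the submitters' processing notes), assembled clones with MiXCR, and deposited, per chain and library, a read count for every clone together with the fraction of reads it held. Only the deposited counts were used, and fractions served to check them. The notes name the mm10 build, and segment positions are from RefSeq for GRCm38.p6, in which all 144 segments used by or tested for the expanded chains were matched by symbol.

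Reads were summed over clones with the same first V and J segment, alleles removed, and CDR3 nucleotide sequence, and in-frame chains with at least 0.02% of all reads of the table were called expanded. Reads without a CDR3, 2.00% to 3.41% for TCRα and 0.735% to 1.00% for TCRβ, stayed in the total. Inserted bases lie between the V and J parts, or beside the D part, as the deposited alignments place them. Exact two-sided permutation tests were applied to single values over 6 assignments of the genotype labels, or sign-flip tests over the 4 libraries, for 8 and 6 comparisons without adjustment, as none could pass 0.05, and the 4 on numbers and shares of reads, which the threshold fixes, are not reported. Segments were tested on numbers of chains with the edgeR 4.0.16 quasi-likelihood test, scaled by the chains of each library and adjusted by Benjamini-Hochberg within each segment kind, over segments with at least 10 expanded chains, or at least 10 as predicted from the other chains where expanded and other chains were compared. DESeq2 1.42.0 was an alternative. Scripts were tested on simulated data. Python 3.11.15, scipy 1.17.1 and R 4.3.3 were used.

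The chains, segments and lists were chosen with earlier results of these data known. Named were the 3 largest chains of each table, up to 5 chains expanded in 3 or more libraries, the 3 V and J segments with most expanded chains, up to 3 called segments per direction, the chains beside the threshold and the iNKT chain. The labels do not tie same-numbered libraries to a shared litter or day, and p-values measure the spread between these libraries. The correlation of the deviations of same-numbered libraries was -0.49 for TRAV, 0.13 for TRAJ, 0.06 for TRBV and -0.33 for TRBJ segments, without a common sign. With 2 libraries per genotype a negative value means that libraries of opposite number deviated together. WT replicate 1 and Tet2/3 DKO replicate 2 also had the most expanded chains of their genotype for both chains. Whether any of the libraries shared a preparation was not tested. Alternatives covered the threshold, the denominator, the key, the joining of near-identical chains, equal depth, stop codons, normalization, filter, test, replicate block and each library left out. Merged TRAV copies for single values, removal of the largest chain of each table, a minimum of 2 reads elsewhere, single-library chains and a crossed block were added after seeing the data.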

Additional observations from a re-analysis of the deposited data

Results flagged for a closer look

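Chains out of frame, which cannot encode a receptor, were not part of the comparisons, but some reached 0.02% of the reads of their table. For TCRα they numbered 12 in WT replicate 1, 5 in WT replicate 2, 6 in Tet2/3 DKO replicate 1 and 18 in Tet2/3 DKO replicate 2, and held 0.390%, 0.153%, 0.151% and 0.959% of the reads. For TCRβ there was 1 in WT replicate 1 and there were 3 in Tet2/3 DKO replicate 2, with 0.0216% and 0.162% of the reads, and 0 in both other libraries. For both chains Tet2/3 DKO replicate 2 and WT replicate 1 had the most in-frame and the most out-of-frame chains at this level.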

How the results depend on the processing

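Single values are given as log2 of Tet2/3 DKO over WT for numbers and shares of reads and otherwise as differences. Exact tests could not pass 0.05 under any setting. Genotype differences without a stable sign were as follows. The number of expanded TCRα chains went to 0.41 at a threshold of 0.05% and 0.0654 among chains of a single library. The share of TCRα chains found elsewhere went to 0.715 points at a threshold of 0.01% and 0.214 with near-identical chains joined. The mean TCRβ length went to 0.760 nucleotides at 0.05%, 0.0258 without the largest chains and 0.0479 among chains of a single library. Leaving out each library gave ranges of -0.45 to 0.28 for the number of TCRα chains, -1.13 to 0.85 for TCRβ chains, -0.59 to 0.87 for the TCRα share of reads, -1.15 to 1.51 for the TCRβ share, -10.7 to 13.8 points for TCRα and -9.28 to -0.649 points for TCRβ chains found elsewhere, and 0.0929 to 0.995 nucleotides for TCRα and -0.610 to 0.542 for TCRβ length. Against the other chains, the TCRα length difference turned to 0.185 nucleotides among chains of a single library, while sharing and inserted bases kept their sign under every setting run, with TCRα differences of 21.4 to 42.7 points and -1.36 to -0.172 bases.

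Of segments called against the other chains, TRAV calls were 29 of 60 at 0.01%, 1 with DESeq2 and 0 among chains of a single library, and TRAJ calls 19 of 43, 3 and 0, and 1 to 5 when a library was left out. TRBV calls were 1 with DESeq2 and 0 to 2 when a library was left out. More segments passed the filter at 0.01%. Among chains of a single library TRAV7-2 turned to -0.75 and TRAJ15 to -0.28. TRBJ calls by genotype, 3 in the main test, were 0 at 0.01%, with DESeq2 and with the replicate block. They were also 0 on reads and among chains of a single library. The replicate block changed no other count of calls. A crossed block left 2 TRBJ calls and 0 for the other kinds. TRBJ2-2 kept its call in 1 of 8 alternatives run on all libraries. The cause of these changes was not tested. Depth limits which chains can be found elsewhere, since a chain with 0 reads may hold up to 0.00174% of the TCRα and 0.000821% of the TCRβ reads of the shallowest library.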

Other observations

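The expanded chains differed in how many deposited clones, distinct from framework region 1 to framework region 4, they joined. Of the expanded TCRα chains 139, 103, 82 and 114 and of the expanded TCRβ chains 50, 44, 23 and 59 came from a single deposited clone, in the order WT replicates 1 and 2 and Tet2/3 DKO replicates 1 and 2. The largest TCRβ chain, TRBV13-1 with TRBJ2-5 in Tet2/3 DKO replicate 2, joined 56 clones, and TRAV7D-5 with TRAJ26 in WT replicate 1 joined 23. In each a single clone held most of the reads, 9060 of 9642 and 3102 of 3393.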
